A study of Rattus norvegicus with 9 samples.

Results

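The 8 genes examined here encode receptors and a ligand of the neurotrophin and GDNF families and were measured in rat dorsal root ganglion (DRG): the neurotrophin receptors Ntrk2, Ntrk3 and Ngfr, the shared GDNF-family receptor Ret, its co-receptors Gfra1, Gfra2 and Gfra3, and the ligand Bdnf. They were taken by gene symbol from the deposited gene table, so all 8 of 8 named genes were found among 20194 genes, and all 8 were among the 14305 genes tested. The tissue came from adult male Sprague Dawley rats in 3 groups of 3 libraries: sham surgery, spared nerve injury (SNI), in which the tibial and common peroneal branches of the sciatic nerve are cut and the sural branch is left, and SNI followed by intrathecal G15, an antagonist of the G protein-coupled oestrogen receptor (SNI + G15 group). Catheters were placed on day 5 after SNI and drugs were dissolved in DMSO; the labels mark the sham and SNI libraries as controls for G15 without saying whether they received catheter and vehicle. The methods name 3 rats for the sequencing, while the supplementary list of animals gives more per group. Whether each library came from 1 rat or from pooled rats is therefore not settled, and the p-values measure the spread between these libraries.

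Neurotrophins signal through a Trk receptor kinase that differs by ligand, and through the p75 receptor encoded by Ngfr, which binds all of them and their precursors. Ntrk2 encodes TrkB, the receptor of BDNF, and Ntrk3 encodes TrkC, the receptor of NT-3. GDNF-family ligands bind a co-receptor anchored in the membrane (GFRα1 for GDNF, GFRα2 for neurturin, GFRα3 for artemin), and the complex then engages the kinase RET. In DRG several of these receptors mark different classes of sensory neuron, with Ret and Gfra2 in nonpeptidergic nociceptors and Ntrk3 in proprioceptors among others. Which cells of the ganglion, neurons or others, carried each gene was not measured here. All 10 listed markers of sensory neurons passed the filter on low values, with a summed level of 7963 to 9297 FPKM per library. That filter asks for 1 FPKM in any library and most genes pass it, so it is a weak check of the tissue label. FPKM scales the fragments of a gene by transcript length and library size, so levels of different genes can be compared on it. Depth was alike, from 18484557 to 18756736 estimated reads per library, and the lowest correlation between 2 libraries of a group over tested genes was 0.991.

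Injury was accompanied by higher Bdnf and Gfra1, by a smaller rise of Gfra3, and by lower Gfra2, Ntrk3 and Ngfr. Estimated counts were compared with edgeR's quasi-likelihood test, and a gene was called when its Benjamini-Hochberg adjusted p over all tested genes was below 0.05. Of the 8 genes, 3 rose and 3 fell in SNI against sham, and 2 were not called. Across all tested genes 45.7% were called in this comparison, 23.3% higher and 22.4% lower; with 8 genes, 6 called is a description and was not tested against that share. Their median log2 fold change was 0.034, against 0.0010 for all tested genes. Markers of other states and cells moved in the same comparison: all 10 listed genes of the neuronal injury response and 9 of 10 macrophage markers were called higher, and 7 of 10 Schwann cell markers lower, with a summed level of 6267 to 6402 FPKM in sham and 3745 to 3823 in SNI. All 5 erythroid markers and all 3 tested markers of injured glia were also called higher. Gap43 stands in both the injured glia list and the neuronal injury list, so it is counted in each. Of 6 markers of large neurons, among which Ntrk3 is expressed, 3 were called lower (Nefh at -0.66, Pvalb at -0.63 and Whrn at -0.34). Spp1 was called higher, at 0.90, and Runx3 and Calb1 were not called. The summed level of the 6 was 3079 to 3144.5 FPKM in sham and 2685.5 to 2805.5 in SNI. Nefh alone had 2105 to 2219 FPKM in sham and 1343 to 1486 in SNI. Of 6 markers of nonpeptidergic neurons, 2 were called lower (Mrgprd at -0.58 and Scn11a at -0.42) and 1 higher (Lpar3 at 0.33), with a summed level of 265 to 269.9 FPKM in sham and 254 to 261 in SNI. Of 10 markers of sensory neurons, 4 were called lower (Rbfox3 at -0.56, Snap25 at -0.45, Avil at -0.42 and Isl1 at -0.35). Tubb3 and Prph were called higher, at 0.35 and 0.28. The summed level of the 10 was 7963 to 8253 FPKM in sham and 8642 to 8879 in SNI. Of 5 peptidergic markers 3 were called lower and 1 higher. For C-low-threshold mechanoreceptors 2 of 3 tested markers were called lower. No marker of these lists was at 0 in all libraries, and their part in the values below was not tested. A level in bulk tissue cannot tell fewer cells of a type from less RNA per cell.

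**Figure D1:**
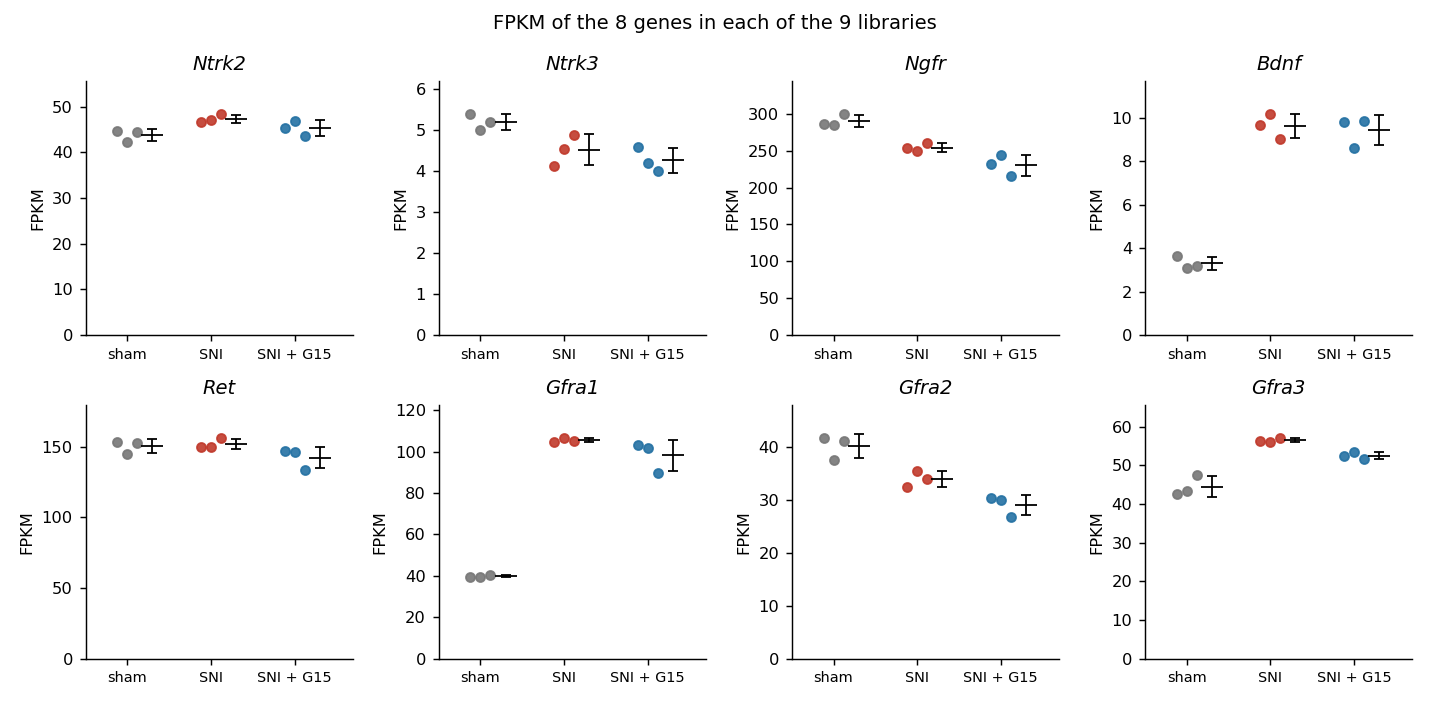
FPKM (vertical axis, starting at 0) of each gene in the 3 sham, 3 SNI and 3 SNI + G15 libraries; points are libraries and the bar beside them is the mean with SD. The SNI libraries lie at 104.7 to 106.6 for Gfra1 and 9.04 to 10.2 for Bdnf, above every sham library.

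Bdnf, a ligand made by sensory neurons themselves, had 3.65, 3.08 and 3.18 FPKM in the sham libraries and 9.66, 10.2 and 9.04 FPKM in the SNI libraries. Every SNI library was above every sham library. The fitted log2 fold change was 1.54 (SE 0.070, 95% interval 1.38 to 1.69, edgeR adjusted p = 4.84e-08), a level 2.90 times that of sham, and the gene ranked 306th from the highest of 14305 tested. Changes of at least 1 on the log2 scale that were also called and higher made up 4.07% of tested genes. The estimated counts behind these values were 234 to 273 in sham and 694 to 779 in SNI.

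Gfra1, the co-receptor of GDNF, had 39.7, 39.4 and 40.3 FPKM in sham and 104.7, 106.6 and 105.2 FPKM in SNI. The groups were far apart and both were tight. The log2 fold change was 1.29 (SE 0.032, 95% interval 1.22 to 1.36, edgeR adjusted p = 3.97e-10), which is 2.45 times the sham level. Gfra3, the co-receptor of artemin, had 42.6, 43.3 and 47.6 FPKM in sham and 56.3, 56.1 and 57.1 FPKM in SNI. It rose by 0.31 on the log2 scale (SE 0.049, edgeR adjusted p = 4.32e-04) with no overlap of the groups.

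The 250 bases before the annotated start of Gfra1, of 2 of the 6 Bdnf starts and of Ret are shown because Gfra1 and Bdnf rose and Ret, the kinase that GFRα1 works with, was not called. They are from RefSeq (rat build GRCr8) and read 5′ to 3′ on the gene's strand; 4 of the 8 genes (Ret, Gfra1, Gfra3 and Bdnf) matched the promoter set. Capitals mark matches on either strand to any of 4 motifs. The AP-1 motif was searched as TGANTCA, the GC box as GGGCGG, the full CRE as TGACGTCA, and its shorter form, which the full one contains, as TGACG.
Gfra1, chr1:267555812-267556061, minus strand: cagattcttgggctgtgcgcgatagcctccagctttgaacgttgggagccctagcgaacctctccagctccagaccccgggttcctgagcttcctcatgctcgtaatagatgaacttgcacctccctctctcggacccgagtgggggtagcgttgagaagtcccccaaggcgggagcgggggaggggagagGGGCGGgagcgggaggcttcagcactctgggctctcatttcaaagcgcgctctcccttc
Bdnf window 3, chr3:116621721-116621970, plus strand: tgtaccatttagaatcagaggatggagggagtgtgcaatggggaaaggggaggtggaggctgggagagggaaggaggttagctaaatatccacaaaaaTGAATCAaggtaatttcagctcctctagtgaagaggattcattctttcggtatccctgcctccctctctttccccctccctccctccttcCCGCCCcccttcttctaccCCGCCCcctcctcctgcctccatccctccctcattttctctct
Bdnf window 4, chr3:116637608-116637857, plus strand: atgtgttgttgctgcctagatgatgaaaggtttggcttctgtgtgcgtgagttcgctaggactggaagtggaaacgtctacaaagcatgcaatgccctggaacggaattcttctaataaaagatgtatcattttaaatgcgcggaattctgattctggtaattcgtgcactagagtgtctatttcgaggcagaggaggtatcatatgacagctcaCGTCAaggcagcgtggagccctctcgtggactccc
Ret, chr4:153040557-153040806, minus strand: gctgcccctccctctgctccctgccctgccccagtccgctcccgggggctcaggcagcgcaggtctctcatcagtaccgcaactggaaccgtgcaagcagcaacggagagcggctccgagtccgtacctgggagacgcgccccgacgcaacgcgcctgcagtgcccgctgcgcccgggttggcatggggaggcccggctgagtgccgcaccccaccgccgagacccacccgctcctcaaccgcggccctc
Of these windows, Bdnf window 3 held 1 match to the AP-1 motif and 2 to the GC box, Bdnf window 4 held 1 match to the shorter CRE, Gfra1 held 1 match to the GC box and Ret held 0 matches. Among all 33469 windows of this length, 6.34% held the AP-1 motif, 1.59% the full CRE, 18.2% the shorter CRE and 30.5% the GC box. These shares are per window, while Bdnf had 6 windows, so a match in any of them is likelier than the share. The other 4 Bdnf windows held 0 matches and were not printed for that reason; the Gfra3 window, not printed, held 3 matches to the GC box. A match is a run of letters in a sequence, and no binding was measured.

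Gfra2, the co-receptor of neurturin, had 41.7, 37.6 and 41.1 FPKM in sham and 32.4, 35.5 and 34.1 FPKM in SNI, with no overlap. It fell by 0.27 on the log2 scale (SE 0.050, edgeR adjusted p = 0.00147). Ngfr, the p75 receptor, had 285.6, 284.5 and 299.4 FPKM in sham and 253.1, 249.1 and 260.4 FPKM in SNI, again apart. Its log2 fold change was -0.22 (SE 0.034, edgeR adjusted p = 3.77e-04). Ntrk3 had 5.39, 5.01 and 5.19 FPKM in sham and 4.13, 4.55 and 4.89 FPKM in SNI. All 3 SNI libraries were lower, and the log2 fold change was -0.23 (SE 0.073, edgeR adjusted p = 0.0229). That call was lost with DESeq2 (adjusted p = 0.0931), with limma on log2 FPKM (adjusted p = 0.0685 and 0.0694 with pseudocounts of 1 and 0.1), and when any 1 of sham library 1, SNI library 1 or SNI library 2 was left out (adjusted p = 0.0624, 0.0941 and 0.0585 with edgeR).

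Ret and Ntrk2 were not called. Ret, the kinase shared by the GDNF co-receptors, had 153.4, 144.5 and 152.6 FPKM in sham and 149.7, 149.5 and 156.1 FPKM in SNI. The groups overlapped, and the log2 difference was -0.013 with a 95% interval of -0.091 to 0.065. Ntrk2 had 44.8, 42.4 and 44.5 FPKM in sham and 46.6, 47.1 and 48.4 FPKM in SNI. These groups did not overlap, but the difference of 0.082 on the log2 scale missed the threshold (edgeR adjusted p = 0.0861); it was called by limma on log2(FPKM + 0.1), at 0.11 (adjusted p = 0.0497). Groups did not overlap for 7 of the 8 genes, against 53.9% of all tested genes.

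**Figure D2:**
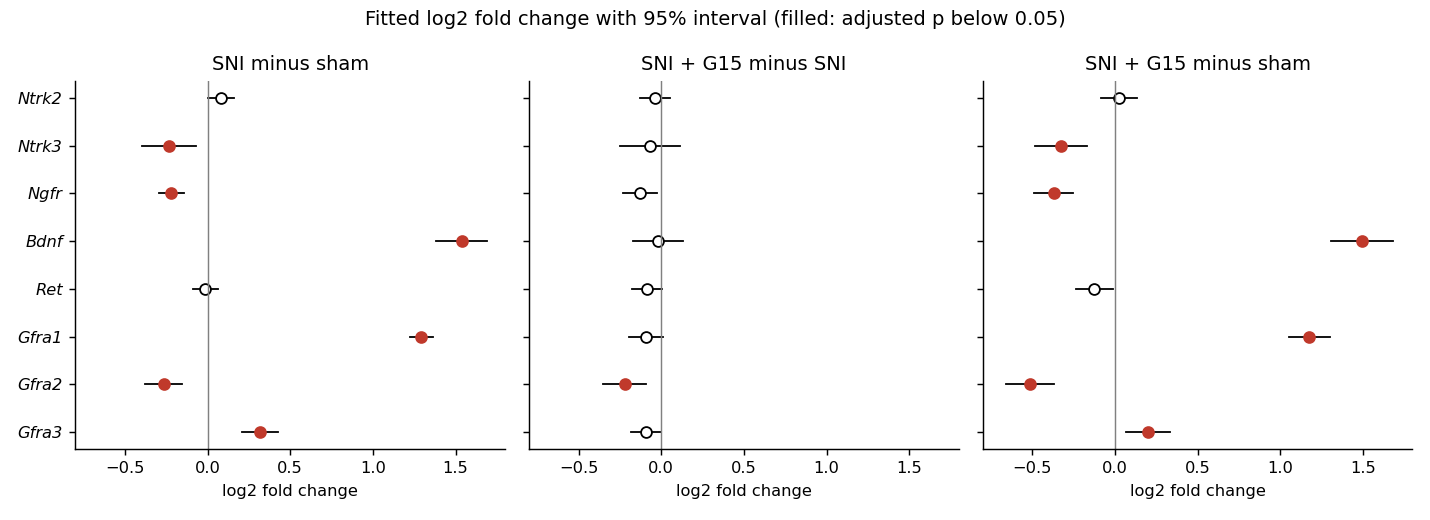
Fitted log2 fold change (horizontal axis) of each gene in the 3 comparisons, with the 95% interval as a line; filled points have an adjusted p below 0.05. Gfra1 and Bdnf lie above 1 in both comparisons with sham, and in SNI + G15 minus SNI Gfra2 is the filled point.

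The level of each co-receptor was also set against that of Ret. Within each library, Gfra1 was 0.265 ± 0.0069 (SD, n = 3) of Ret in sham and 0.695 ± 0.020 in SNI. Gfra2 was 0.267 ± 0.0064 of Ret in sham and 0.224 ± 0.012 in SNI, and Gfra3 was 0.296 ± 0.018 and 0.372 ± 0.0058. Of the summed FPKM of the 3 co-receptors, Gfra1 made up 32.0% ± 0.75 in sham and 53.8% ± 0.29 in SNI. Gfra2 made up 32.2% ± 1.3 in sham and 17.3% ± 0.58 in SNI. In sham the levels ran from Ngfr through Ret, then Gfra3, Ntrk2, Gfra2 and Gfra1, to Ntrk3 and Bdnf; Gfra3 overlapped with Ntrk2 and Gfra2 with Gfra1. In SNI Gfra1 came directly after Ngfr and Ret, Bdnf was above Ntrk3, and no neighbours in the order overlapped. The order in the SNI + G15 group was that of SNI, again with no overlap between neighbours.

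**Figure D3:**
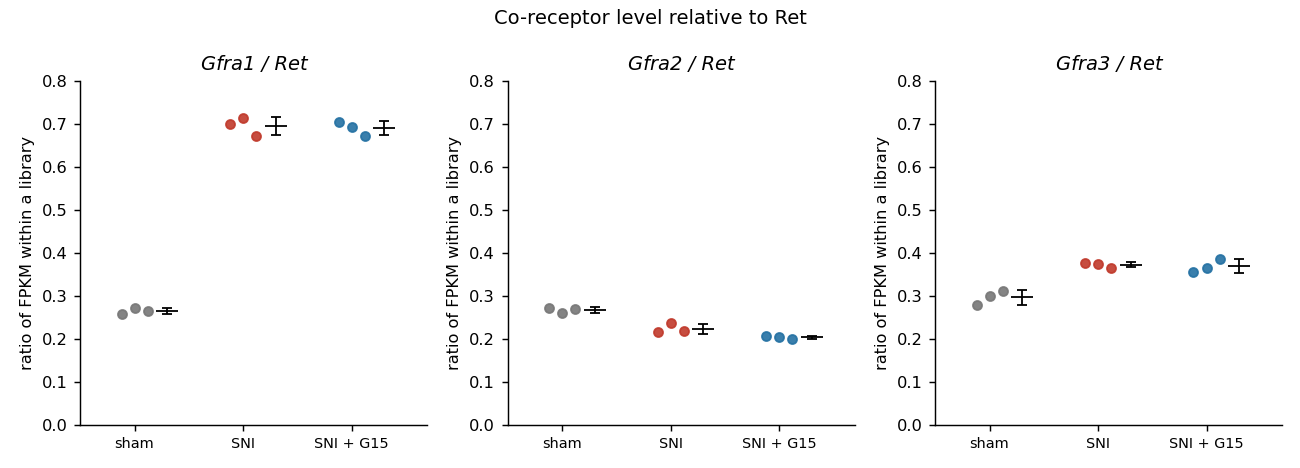
Ratio of the FPKM of each co-receptor to that of Ret within a library (vertical axis, starting at 0), by group; points are libraries and the bar is the mean with SD. Gfra1 to Ret is 0.259 to 0.272 in sham and 0.672 to 0.713 in the 6 injured libraries.

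The second comparison asked what the receptors did when G15 was given after the injury. One of the 8 genes, Gfra2, was called, and it was lower. Among all tested genes 15.2% were called in this comparison, 7.25% lower. The median log2 fold change was -0.090 over the 8 genes and 0.0063 over all tested genes. The lower values depended in part on the fit. With a length offset, an alternative described with the processing, Ntrk2 was at 0.078, Bdnf at 0.042, Gfra1 at -0.0028 and Ret at -0.0082. There Ntrk3 was at -0.029, Ngfr at -0.10, Gfra3 at -0.125 and Gfra2 at -0.205. The median of the 8 genes was not computed for that fit. In 5 of the 8 genes every SNI + G15 library was below every SNI library (Ngfr, Ret, Gfra1, Gfra2 and Gfra3), against 21.0% of tested genes lower without overlap and 38.3% apart in either direction.

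Gfra2 had 30.3, 30.0 and 26.8 FPKM in the SNI + G15 libraries, below all SNI libraries. It fell by 0.22 on the log2 scale (SE 0.058, 95% interval -0.35 to -0.090, edgeR adjusted p = 0.0356). The call was lost with limma on log2 FPKM (adjusted p = 0.0519 and 0.0529) and when SNI library 1, 2 or 3 was left out (edgeR adjusted p = 0.0564, 0.134 and 0.121). Over all alternatives its adjusted p was 0.0149 to 0.134. Markers of nonpeptidergic neurons moved beside it: 4 of 6 were called lower with G15 and 2 were not called. Mrgprd, a receptor of those neurons, had 15.1, 14.6 and 15.5 FPKM in SNI and 11.9, 11.8 and 9.40 FPKM with G15. The summed level of the 6 markers was 254 to 261 FPKM in SNI and 201 to 238 FPKM with G15, and none was at 0 in all libraries. P2rx3, not called, held 129 to 155 FPKM of that sum with G15. Other neuronal lists also moved: 2 lower and 1 higher of 10 for sensory neurons, 1 lower and 1 higher of 5 for peptidergic neurons. For C-low-threshold mechanoreceptors 1 of 3 tested markers was called lower, and for large neurons 1 of 6 higher. The part of these markers in the Gfra2 result was not tested.

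Bdnf was 9.82, 8.63 and 9.85 FPKM with G15, with 2 libraries inside the SNI range and 1 below it, and the log2 difference was -0.018 with a 95% interval of -0.17 to 0.13. Gfra1 had 103.3, 101.5 and 89.7 FPKM, all below SNI, but the difference of -0.094 was not called (edgeR adjusted p = 0.195). Gfra3 had 52.3, 53.5 and 51.7 FPKM and Ret 146.8, 146.3 and 133.6 FPKM, with differences of -0.093 and -0.087 that were not called either (edgeR adjusted p = 0.139 and 0.173). Without SNI + G15 library 3 the differences of Gfra1 and Ret were -0.045 and -0.053, and with the length offset -0.0028 and -0.0082. Ngfr had 232.0, 243.4 and 215.0 FPKM, also below SNI, and a difference of -0.13 (edgeR adjusted p = 0.0860). Leaving out SNI + G15 library 2 made that call (edgeR adjusted p = 0.0437). Ntrk2 and Ntrk3 overlapped between the groups, at -0.036 and -0.067.

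Against sham, 6 of the 8 genes were called in the SNI + G15 group: Bdnf 1.50, Gfra1 1.18 and Gfra3 0.20 higher, and Gfra2 -0.51, Ngfr -0.37 and Ntrk3 -0.32 lower on the log2 scale. This comparison shares its sham libraries with the first and its G15 libraries with the second. Among all tested genes 43.2% were called, 21.4% higher and 21.9% lower. The largest adjusted p of the 6 was 0.0211, for Gfra3, and that call was lost without sham library 1 or 2 or SNI + G15 library 2 (edgeR adjusted p = 0.0876, 0.0713 and 0.0559). Ret was lower by 0.12 and not called (edgeR adjusted p = 0.0683), and Ntrk2 differed by 0.023 (edgeR adjusted p = 0.736). Ret was called in the joint fit of the 9 libraries (edgeR adjusted p = 0.0481) and without sham library 2 (edgeR adjusted p = 0.0489), and Ntrk2 with the length offset, at 0.11 (edgeR adjusted p = 0.0367).

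Estimates per transcript were compared in the same way. The files list 37 transcripts of the 8 genes, of which 26 passed the filter on low values; in SNI against sham 5 of the 26 were called, against 10.3% of all tested transcripts. That number was 2 without sham library 1, and 3 without sham library 2, SNI library 1, SNI library 2 or SNI library 3. Gfra1 transcript NM_012959.1 rose from 21.9 ± 0.40 to 65.4 ± 1.6 FPKM (SD, n = 3; log2 fold change 1.55, SE 0.029, edgeR adjusted p = 8.45e-05). XM_008760514.2 of the same gene rose from 15.6 ± 0.65 to 34.9 ± 1.8 FPKM (log2 fold change 1.14, edgeR adjusted p = 5.42e-04). The former made up 55.2% ± 1.1 of Gfra1 in sham and 62.0% ± 0.91 in SNI, without overlap.

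Bdnf has 10 listed transcripts, which have their coding exon in common. NM_012513.4 had 0.38, 0.41 and 0.09 FPKM in sham, 2.05, 2.37 and 2.32 in SNI, and 2.33, 2.94 and 3.09 with G15. It was called in SNI against sham (log2 fold change 2.89, SE 0.57, edgeR adjusted p = 0.0369), and its share of Bdnf was 8.87% ± 5.4 in sham and 23.4% ± 2.2 in SNI. NM_001270633.1 had 0.98 to 1.01 FPKM in sham, 1.61, 3.09 and 2.45 in SNI, and 1.01, 1.30 and 1.25 with G15. It was called in SNI against sham at an edgeR adjusted p of 0.0488, close to the threshold. With G15 none of the 26 transcripts was called against SNI by edgeR, although 3 had an unadjusted p below 0.05; 0.662% of all tested transcripts were called. In SNI + G15 against sham 4 of 26 were called, against 10.4% of all tested, and 2 when sham library 1 or any 1 SNI + G15 library was left out. Shares did not overlap between SNI and sham for 4 of 25 transcripts of genes with several, against 13.9% of such transcripts in all genes. They were the 2 Gfra1 transcripts named above, NM_012513.4 of Bdnf, and XM_017597001.1 of Ngfr. The share was apart for 2 of 25 in SNI + G15 against SNI and for 8 of 25 in SNI + G15 against sham, beside 11.2% and 13.4%.

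**Figure D4:**
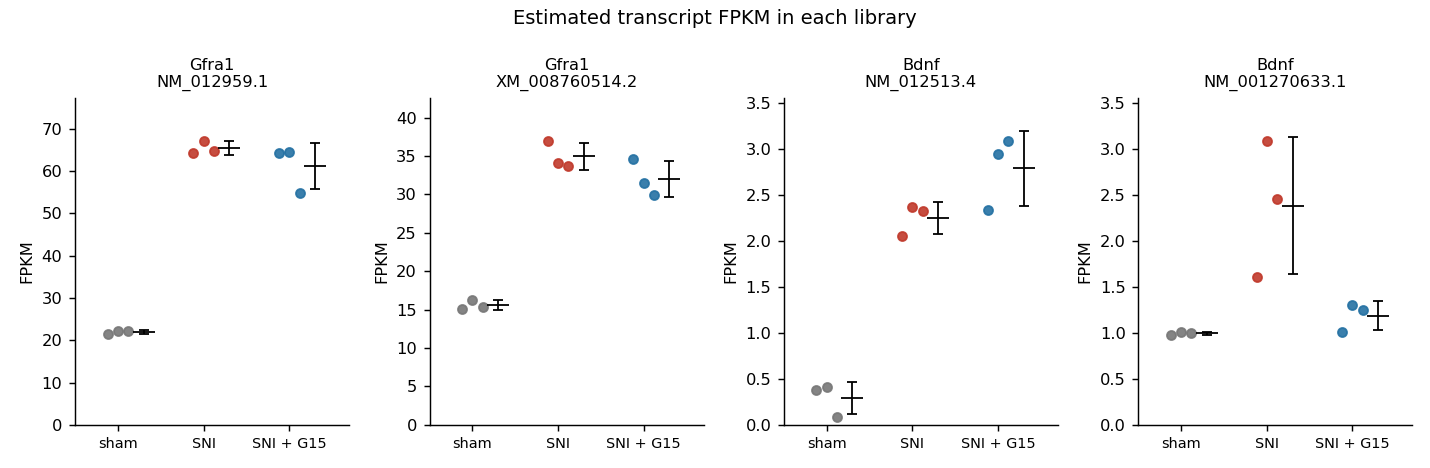
Estimated FPKM (vertical axis, starting at 0) of 2 transcripts of Gfra1 and 2 of Bdnf in each library, by group; points are libraries and the bar is the mean with SD. Bdnf NM_012513.4 is 0.09 to 0.41 in sham and 2.05 to 3.09 in the injured libraries, while NM_001270633.1 is 1.01 to 1.30 with G15.

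Other genes of the same pathways were counted from lists of ligands, receptors, processing enzymes, adaptors and negative regulators. Of 80 listed genes 69 were tested; 17 rose, 20 fell and 32 were not called in SNI against sham, with a median log2 fold change of 0.0022; 37 of 69 called stands beside 45.7% of all tested genes. With G15 against SNI 3 rose, 6 fell and 60 were not called, beside 15.2% called among all tested genes. The 9 calls became 5 without SNI library 1 or SNI + G15 library 2, 3 without SNI library 2 and 2 without SNI library 3. Against sham, 14 rose and 19 fell in the SNI + G15 group, beside 43.2%. In each comparison the share called in the lists lay near that of all tested genes.

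Among the ligands, Gdnf, the ligand of Gfra1, was below the filter of 1 FPKM in every library, so its value comes from the fit without that filter, and it was named after its values were seen. Its estimated counts were 2 in each sham library, 10, 11 and 8 in SNI, and 59, 53 and 37 with G15. In SNI against sham its log2 fold change was 2.17 (SE 0.48, edgeR adjusted p = 0.00478). The values that follow are for SNI + G15 against SNI. Every G15 library was above every SNI library, and the log2 fold change was 2.36 (SE 0.26, edgeR adjusted p = 7.45e-04), with 2.22 to 2.53 when any 1 library was left out. Fibroblast markers were higher in the same comparison, 8 of 9 called, with a summed level of 472 to 473 FPKM in SNI and 642 to 665 with G15; Schwann cell markers were higher for 6 of 10, at 3745 to 3823 and 4081.5 to 4166 FPKM. Erythroid markers were lower for 5 of 5. None of these lists had a marker at 0 in all libraries, and their part in the Gdnf value was not tested. Nrtn and Pspn were tested and not called in any of the 3 comparisons, and Ntf3, Ntf4, Artn and Gdf15 stayed below 1 FPKM in every library. In the fit without the filter, Artn was higher in SNI + G15 than in sham (log2 fold change 0.97, edgeR adjusted p = 0.0451). Its estimated counts were 8 to 18 in sham and 21 to 28 with G15. Ntf3, Ntf4 and Gdf15 were not called in that fit.

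**Figure D5:**
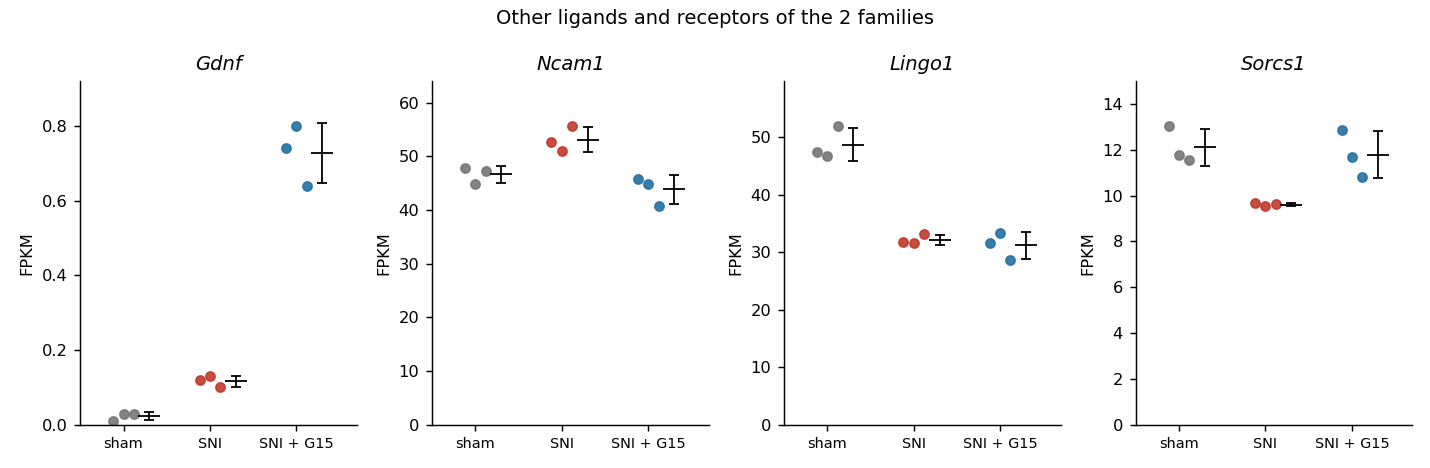
FPKM (vertical axis, starting at 0) of Gdnf, Ncam1, Lingo1 and Sorcs1 in each library, by group; points are libraries and the bar is the mean with SD. Gdnf is at most 0.13 in SNI and 0.64 to 0.80 with G15, and Ncam1 is 51.0 to 55.7 in SNI and 40.8 to 45.8 with G15.

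Of 11 tested further receptors and co-receptors, 2 rose and 5 fell with injury. Lingo1 and Rtn4r, which form a complex with the p75 receptor, fell by 0.61 and 0.55 (edgeR adjusted p = 3.27e-06 and 2.93e-04). Sorcs1 and Sort1, sortilin-family receptors, fell by 0.37 and 0.15 (edgeR adjusted p = 1.20e-04 and 0.0362), and Sorcs2 rose by 0.27 (edgeR adjusted p = 0.00135). Ncam1, an alternative receptor of GDNF, rose by 0.17 (edgeR adjusted p = 0.00464). With G15 Ncam1 fell by 0.25 (edgeR adjusted p = 0.0128) and Sorcs1 rose by 0.33 (edgeR adjusted p = 0.00847), the 2 calls of this list. Against sham, 8 of the 11 were called in the SNI + G15 group, among them Gfra4 (-0.75), Sort1 (-0.34), Sorcs3 (-0.41), Lingo1 (-0.65) and Rtn4r (-0.77) lower, and Sorcs2 (0.31) and Nradd (0.70) higher.

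Among processing enzymes 2 of 7 rose and 3 fell with injury. Pcsk1, a prohormone convertase, rose by 0.56 and Mmp9, a secreted protease, by 1.27 (edgeR adjusted p = 3.69e-06 and 9.54e-05), while Pcsk5 and Pcsk6 fell by 0.54 and 0.24 (edgeR adjusted p = 6.63e-04 and 0.00538). With G15 Furin and Plat rose by 0.21 and 0.15 (edgeR adjusted p = 0.0405 and 0.0337). Of 31 adaptors and effectors 10 rose and 6 fell with injury, and those with the smallest adjusted p were Maged1, which binds the p75 receptor and rose by 0.66, and Dok4, a substrate of RET that fell by 0.55 (edgeR adjusted p = 1.77e-07 and 1.49e-06). Shc1 and Rapgef1, which act downstream of Trk receptors, rose by 0.28 and 0.30 (edgeR adjusted p = 1.47e-04 and 1.75e-04). With G15 4 of the 31 fell, among them Maged1 (-0.17), Dok6 (-0.55) and Kidins220 (-0.15), and 0 rose. Of 17 negative regulators 2 rose and 6 fell with injury; Dusp6, a dual-specificity phosphatase, rose by 0.52 and Spry3 fell by 0.46 (edgeR adjusted p = 4.78e-05 and 3.38e-04), and Lrig2 and Lrig1 were at -0.25 and 0.26 (edgeR adjusted p = 0.00152 and 0.00265). Nedd4l, an E3 ligase, was the 1 call of that list with G15, at -0.27 (edgeR adjusted p = 0.0052). Against sham, the calls of these lists with the smallest adjusted p in the SNI + G15 group were Pcsk1 (0.67), Pcsk5 (-0.67), Mmp9 (1.07) and Pcsk6 (-0.36) among enzymes, Dok4 (-0.52), Maged1 (0.46), Sh2b2 (0.997) and Shc1 (0.28) among adaptors, and Nedd4l (-0.45), Dusp6 (0.45), Lrig2 (-0.48) and Spry3 (-0.56) among negative regulators.

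The genes whose profile over the 9 libraries was most like that of each member were sought by Pearson correlation of log2(CPM + 1). The 9 libraries fall into 3 groups, and the values describe likeness over these libraries alone. Sema6a (0.998), Arg1 (0.998) and Flrt3 (0.998) were most like Gfra1, and Syt4 (0.997), Cacna2d1 (0.997) and Ipo5 (0.997) most like Bdnf. A correlation above 0.95 was reached by 732 genes for Gfra1 and 713 for Bdnf. Gfra2 was closest to Arhgef11, Abr and Rab3c (0.992, 0.992 and 0.990), Ngfr to Adam11, Nckipsd and Tmem132e (0.994, 0.993 and 0.992), and Ret to Gpatch8, Mtcl1 and Jade2 (0.988, 0.985 and 0.984). Gfra3 was closest to Cyp2s1, Wdr82 and Itpk1 (0.988, 0.987 and 0.983), and Ntrk3 to genes that included Lgalsl and Isx (0.969 and 0.963). For Ntrk2 the closest were N4bp1, Vash1 and Seh1l (0.962, 0.947 and 0.946).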

How the data were processed

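RNA-Seq of DRG gave FPKM values and estimated counts per gene and per transcript. Per the study's methods, RNA was sequenced as paired reads, and a gene's FPKM is the sum over its transcripts; the aligner and annotation are not given in the sources used here. The submitters' notes list mouse builds (GRCm38, mm10) although the gene identifiers are those of rat, and the labels' extraction text names macrophages and another library kit. The deposited FPKM were normalized by the authors for depth and length. The study's methods state no normalization of the deposited estimated counts, which can be fractional. Their totals were alike in all 9 libraries, and whether they were scaled before deposit was not tested. Counts of Ntrk2, Ngfr, Gfra1 and Gfra2 were not whole in 8 or 9 of 9 libraries. Columns named Control were matched to the sham libraries by elimination and by number.

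Rounded counts entered edgeR 4.0.16 in R 4.3.3 (quasi-likelihood test after TMM), with 1 fit per comparison, for genes that reached 1 FPKM in any library, and for transcripts likewise. SE is the absolute log2 fold change divided by the root of the F statistic. Alternatives were RLE size factors, a length offset, DESeq2 1.42.0, limma 3.58.1 on log2(FPKM + 1) or log2(FPKM + 0.1), no filter, a joint fit of the 9 libraries, a block for the replicate number, and the omission of each library. In simulated counts for 14305 genes in SNI against sham, 98.0% of 200 genes changed by 1 on the log2 scale were recovered, with 7 false calls. The simulation gave every gene the same preset dispersion and held no smaller change. Its recovery therefore says nothing about differences smaller than 1, such as those of most members. The members, lists and named-gene rule (all members; called ligands and receptors; up to 4 called genes with the smallest adjusted p per other list; the 3 genes most alike in pattern) were chosen with earlier results of these data known. Values of some genes that the rule names are not reported here. Deposited TPM, group averages and the authors' own comparisons (fold changes and p-values) were not used. The precision of a value is limited by 3 libraries per group and by the depth given with the results.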

Additional observations from a re-analysis of the deposited data

How the results depend on the processing

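Over the alternatives, the direction and side of the threshold held in SNI against sham for Bdnf, Gfra1, Gfra2, Gfra3 and Ngfr, and in SNI + G15 against sham for Bdnf, Gfra1, Gfra2, Ngfr and Ntrk3. The numbers of genes, members and pathway genes called in both comparisons with sham stayed within 1.5 times their values. Same-numbered libraries showed little common deviation (correlations of -0.0014, 0.0048 and 0.022 for SNI with sham, -0.083, 0.092 and 0.055 for SNI + G15 with SNI, and -0.036, -0.058 and -0.12 for SNI + G15 with sham). The labels state no pairing, and these correlations cannot exclude that such libraries were handled together. With a replicate block, SNI + G15 against SNI gave 1292 genes, 0 members and 4 pathway genes called, against 2179, 1 and 9 without it, and Gfra2 lost its call (adjusted p = 0.0674); member transcripts called were 2 in each comparison with sham, against 5 and 4. Leaving out 1 library of SNI or SNI + G15 gave 893 to 2333 genes, 0 to 2 members and 2 to 13 pathway genes called, and both limma fits called 0 members. Member transcripts called in SNI against sham numbered 3 without a filter and 2 to 4 without 1 library, and in SNI + G15 against sham 2 to 4 without 1 library; the cause was not tested. The reversed values were near 0 and not called: Ret in SNI against sham was 0.016 in both limma fits, and -0.043 to 0.0031 without 1 library; with G15 against SNI the length offset gave 0.078 for Ntrk2 and 0.042 for Bdnf, and Bdnf was -0.059 to 0.036 without 1 library; Ntrk2 in SNI + G15 against sham was -0.0021 to 0.055 without 1 library. With the length offset that Ntrk2 value was 0.11 and called (adjusted p = 0.0367). Of 342 alternative values of single members and Gdnf, 312 kept call and direction, 15 lost the call, 5 gained it and 10 reversed. Low counts limit Gdnf, Artn and the Bdnf transcripts.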
